A study of Mus musculus with 24 samples.

Results

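Lipopolysaccharide (LPS), the outer membrane component of Gram-negative bacteria, was given for 24 h to macrophages that lack the aryl hydrocarbon receptor (AhR), and their transcriptome was compared with that of unstimulated AhR-deficient macrophages. The comparison takes every library labelled AhR-KO, which is 12 of the 24 in the series: 6 labelled unstimulated (libraries 19, 20, 27, 28, 35 and 36) and 6 labelled LPS (libraries 23, 24, 31, 32, 39 and 40). All were bone marrow-derived macrophages (BMDM) from mice carrying a germline AhR knockout allele on a B6 background, so every cell of the animal lacked the receptor throughout its development. Bone marrow was differentiated with 10 ng/ml GM-CSF and 2 ng/ml TGF-β, a mixture chosen by the study to obtain alveolar-like cells, and on day 6 of culture the stimulated group received 97 EU/ml LPS. The Ca2+ ionophore A23187 (5 µM) was added for the last 10 min in each group, the unstimulated cells included, a step meant to release lipid mediators. The remaining 12 libraries were wildtype (WT) BMDM under the same schedule, 6 unstimulated and 6 LPS. They are used here to ask whether a response differed between genotypes. They also share the filter and the estimate of spread in the fit. The labels give each library a number but do not say which cultures came from the same animal, so the groups were compared unpaired and the p-values measure the spread between these libraries.

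LPS is sensed by Toll-like receptor 4 together with the co-receptor CD14. One branch of its signalling runs through the adaptor MyD88 to the transcription factor NF-κB, which turns on cytokine and chemokine genes; the other runs through the adaptor TRIF to interferon-β, whose receptor switches on the interferon-stimulated genes. AhR is a ligand-activated transcription factor for dietary, microbial and tryptophan-derived compounds, and macrophages use the same inflammatory programme to rebuild their surface receptors, lipid metabolism and cell cycle.

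The AhR-deficient libraries held 46337041 to 76992663 counts each. Libraries 17 to 40 fall into 3 runs of 8 consecutive numbers with 2 libraries of each group in every run; the labels do not say whether a run is a batch. No 2 AhR-deficient replicates agreed within counting noise. Over genes with 50 or more counts in a pair of libraries, the chi-square per degree of freedom was 16.3, 79.95 and 139 for the LPS pairs of one run and 182 to 1141 for LPS pairs across runs. For the unstimulated pairs it was 50.04, 251 and 644 within and 80.2 to 952 across runs. The macrophage markers were present in all 12 libraries, with a summed level of 25030 to 36640 counts per 1000000 (CPM, scaled by the TMM-adjusted library size) before and 22790 to 25690 CPM after LPS. Lymphocyte markers stayed at or below 1.16 CPM in sum. Fewer cells of a type and less RNA per cell cannot be told apart in such bulk libraries.

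For the sequences on which the NF-κB and interferon branches are known to act, the promoters of 4 strongly responding genes are shown, from 250 bases before to 50 bases after the annotated start (RefSeq, GRCm38.p6). They are the interleukin 6 gene (chr5:30012864-30013163, plus strand), the neutrophil chemokine gene Cxcl1 (chr5:90890995-90891294, plus strand), the interferon-inducible chemokine gene Cxcl10 (chr5:92348840-92349139, minus strand) and the ubiquitin-like modifier gene Isg15 (chr4:156200769-156201068, minus strand). Capitals mark matches to the κB consensus in Il6, Cxcl1 and Cxcl10 and to the interferon response core GAAANNGAA in Cxcl10 and Isg15, each searched on both strands.
Il6: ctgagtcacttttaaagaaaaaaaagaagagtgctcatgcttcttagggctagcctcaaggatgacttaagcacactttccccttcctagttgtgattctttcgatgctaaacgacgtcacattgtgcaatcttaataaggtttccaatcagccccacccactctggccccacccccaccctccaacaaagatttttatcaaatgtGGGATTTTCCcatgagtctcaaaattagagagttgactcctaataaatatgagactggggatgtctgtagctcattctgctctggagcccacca
Cxcl1: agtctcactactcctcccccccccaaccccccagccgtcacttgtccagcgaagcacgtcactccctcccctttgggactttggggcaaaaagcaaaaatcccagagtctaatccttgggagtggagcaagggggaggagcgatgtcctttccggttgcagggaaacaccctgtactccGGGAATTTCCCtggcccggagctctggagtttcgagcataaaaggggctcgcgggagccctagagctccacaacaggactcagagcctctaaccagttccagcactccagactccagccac
Cxcl10: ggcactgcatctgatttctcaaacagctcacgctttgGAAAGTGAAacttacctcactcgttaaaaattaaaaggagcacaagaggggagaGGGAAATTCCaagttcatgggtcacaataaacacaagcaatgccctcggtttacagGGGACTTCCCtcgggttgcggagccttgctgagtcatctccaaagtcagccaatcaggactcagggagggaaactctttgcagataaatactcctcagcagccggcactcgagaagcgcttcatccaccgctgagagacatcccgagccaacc
Isg15: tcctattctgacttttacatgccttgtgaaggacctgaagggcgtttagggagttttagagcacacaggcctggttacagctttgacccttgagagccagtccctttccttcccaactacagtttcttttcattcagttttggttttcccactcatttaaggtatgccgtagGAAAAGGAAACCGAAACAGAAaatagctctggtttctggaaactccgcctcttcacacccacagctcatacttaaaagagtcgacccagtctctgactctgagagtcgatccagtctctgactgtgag
In Il6 the κB match lay 44 to 35 bases before the start. In Cxcl1 a match on each strand overlapped between 71 and 61 bases before it. Cxcl10 held κB matches at 159 to 150 and at 103 to 94 bases before the start, with the interferon core further out, at 213 to 205 bases. In Isg15 3 overlapping copies of the interferon core ran from 78 to 58 bases before the start. Over all 27025 genes with a window, 5.14% held a κB match and 9.76% an interferon core. Among the genes that were higher after LPS, 161 of the 1651 with a window held a κB match (9.75%), against 90 of 1654 that were lower (5.44%). For the interferon core the shares were 13.4% and 8.65%. These are descriptions of letters in a fixed window, with no test attached. The 4 printed promoters were chosen among windows that hold a match, so their matches are examples only.

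LPS changed a large share of the transcriptome of AhR-deficient BMDM. Of 16593 genes with enough counts to be tested, 5105 were differentially expressed (30.8%), taken as an adjusted p of at most 0.05 together with a fold change of at least 2 in either direction. Genes that were higher numbered 2504 (15.1%) and genes that were lower 2601 (15.7%). The tails were wide: 417 genes were higher and 285 lower by 5 or more on the log2 scale. In 3672 of the DEGs the 6 LPS libraries did not overlap the 6 unstimulated ones, and over all tested genes this held for 28.5%. The difference had the same sign within each of the 3 runs for 5025 DEGs. These DEGs were called on the same libraries, so the shared sign is no separate check. All fold changes and adjusted p-values given here come from edgeR's quasi-likelihood test with Benjamini-Hochberg adjustment over all tested genes. The split between higher and lower genes rests on the scaling: with TMM factors, which were 0.953 to 1.19 in unstimulated and 0.704 to 0.875 in LPS libraries, the median of all genes was −0.03 on the log2 scale and 49.1% of DEGs were higher. Scaled by total counts, the median was −0.52 and 28.2% of 6128 DEGs were higher. Changes below are relative to the median gene.

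**Figure D1:**
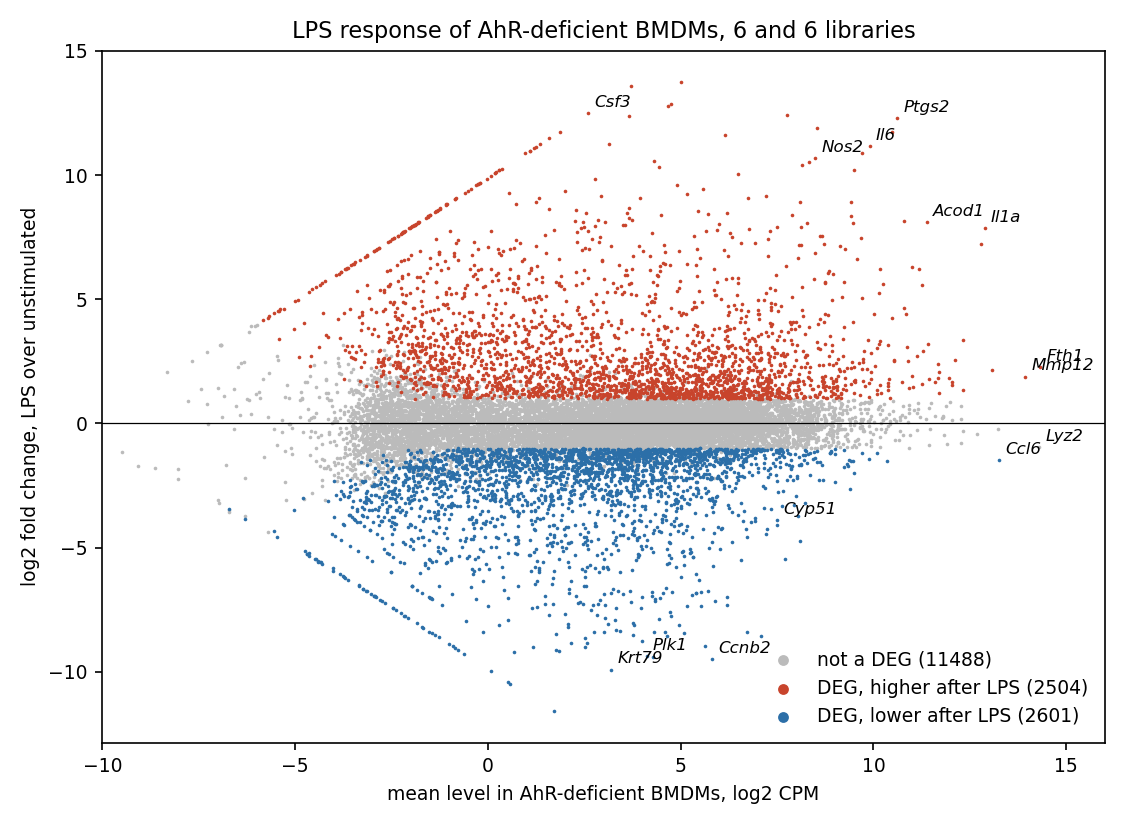
Each dot is a gene; the x axis is its mean level over the 12 AhR-deficient libraries in log2 CPM and the y axis its log2 fold change after LPS (14 genes at 0 in both groups are not drawn). The 2504 higher DEGs (red) and 2601 lower DEGs (blue) lie on both sides of 0 across the whole range of abundance.

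The largest fold changes belonged to genes that were almost silent before LPS. The 12 largest increases among genes reaching 10 CPM with groups that did not overlap were U90926, Gm15056, Il12a, Cxcl11, Csf3, Slc1a2, Il23a, Ptgs2, Serpinb2, Ms4a4c, Il12b and Pde11a, with fitted log2 fold changes of 13.74 down to 11.24. For several of them the unstimulated libraries held 0 to 2 counts in all, so the fitted value depends on the method. U90926 (ENSMUSG00000029409, chr5:92209893-92215408) had 1 count in the 6 unstimulated libraries together and 19.04 to 156 CPM after LPS, a ratio of 25828 with a 95% counting interval of 4636 to 1020140. Csf3, the granulocyte growth factor G-CSF, had no count before LPS and 3.53 to 30.2 CPM afterwards, at least 1588-fold higher. Gm15056 also had none and was at least 3349-fold higher. Il12a and Il23a encode the private subunits of interleukin 12 and interleukin 23, and both went from 2 or fewer counts to medians of 43.8 and 18.1 CPM. Cxcl11, which the annotation lists as a polymorphic pseudogene, went from 2 counts in all to 20.97 to 86.2 CPM. The phosphodiesterase gene Pde11a likewise held 2 counts and then 8.44 to 25.9 CPM. Leaving out the single library with those counts raised the fitted log2 value of Il12a to 14.62, of Cxcl11 to 14.51, of Pde11a to 13.03, of U90926 to 14.89 and of Il23a to 13.54. Slc1a2, a glutamate transporter, rose from at most 0.121 CPM to between 288 and 538 CPM (log2 fold change 12.41, SE 0.47, adjusted p = 3.3e-15). Serpinb2, a protease inhibitor made by activated macrophages, went from at most 0.476 to at least 267 CPM (11.91, SE 0.83), and Ms4a4c, from a family of membrane proteins with close paralogues, from at most 1.71 to at least 942 CPM (11.75, SE 0.95).

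Measured in reads rather than folds, a few genes made up a larger share after LPS. The 10 DEGs with the largest gain in CPM held 2.02 to 2.32% of counts before and 9.96 to 11.95% after LPS. Fth1, the iron-storing heavy chain of ferritin (chr19:9980598-9985098), had the largest gain among them, from 4821 to 8823 CPM (median 7479) to between 21529 and 50206 CPM (median 31148), a log2 fold change of 2.27 (SE 0.26, adjusted p = 1.8e-07). Mmp12, macrophage elastase, went from a median of 5682 to 21301 CPM (1.88, SE 0.30). Both groups stood fully apart in each gene. The other 8 were Il1a, Il1b, the chemokine genes Ccl9 and Cxcl3, the antioxidant Prdx5, the class I histocompatibility gene H2-K1, the itaconate-forming enzyme Acod1 and the fungal and mycobacterial sensor Clec4e (Mincle). Prdx5 rose by 3.35 (SE 0.41), Clec4e by 5.58 (SE 0.35), Cxcl3 by 6.20 (SE 0.31), H2-K1 by 2.56 (SE 0.16) and Ccl9 by 2.15 (SE 0.40) on the log2 scale. The 10 DEGs with the largest loss in CPM went from 2.13 to 4.03% of counts to 0.459 to 1.01%. They were the chemokine gene Ccl6, the eosinophil-type ribonuclease Ear2, the proton pump subunit Atp6v0d2, the actin-binding protein Cotl1, the lysosomal lipase Lipa, the lysosomal amidase Naaa, the adiponectin receptor Adipor2, the class II gene H2-Aa and the processed pseudogenes Gm8203 and Rps16-ps2. Lyz2, described with the macrophage markers, lost more CPM than any of these but stayed under the required fold. Among the 10 DEGs, Ccl6 had the largest loss, from a median of 12151 CPM (9225 to 25393) to 5154 CPM (2384 to 9730), and fell by 1.48 on the log2 scale (SE 0.37, adjusted p = 0.002) although the groups overlapped. Atp6v0d2 fell by 2.65 (SE 0.20), Naaa by 2.37 (SE 0.24), Adipor2 by 1.70 (SE 0.14), Ear2 by 1.51 (SE 0.27), Lipa by 1.41 (SE 0.21) and Cotl1 by 1.19 (SE 0.15). Counts of Ear2, H2-K1 and the pseudogenes (Gm8203 −2.01, Rps16-ps2 −1.19) are uncertain, since each has near-identical copies and only uniquely aligned reads were counted; the part of the copies was not tested. The fall of Rps16-ps2 did not pass without library 19 (−0.82).

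Genes of LPS sensing and signalling included 9 higher and none lower of 23, beside 15.1% higher and 15.7% lower among all genes. Tlr4 itself was at 218 to 277 CPM before and 372 to 503 CPM after LPS, with no overlap, a log2 difference of 0.75 (SE 0.11) that stayed under the required fold of 2. Cd14, the LPS co-receptor, rose from a median of 50.4 to 2225 CPM (5.60, SE 0.27, adjusted p = 1.0e-13). The NF-κB subunit Relb rose by 1.79 (SE 0.21). Tlr2 overlapped between the groups, with a difference of 0.53 and an adjusted p of 0.059. The inhibitors that restrain the pathway rose almost as a block, 16 of 18 higher and none lower, with a median of 2.82. Nfkbia, which holds NF-κB in the cytoplasm, went from a median of 189 to 1456 CPM (2.90, SE 0.32). Tnfaip3, the ubiquitin-editing enzyme A20, rose by 3.51 (SE 0.25), Nfkbiz by 6.20 (SE 0.46), and the cytokine signalling suppressors Socs1 and Socs3 by 3.83 (SE 0.21) and 4.41 (SE 0.20). A κB match stood in the promoter window of 7 of the 17 inhibitors that had one (41.2%), beside 6.28% of all tested genes with a window.

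Cytokine transcripts rose across the list, 20 of 23 higher and 1 lower (15.1% and 15.7% of all tested genes), with a median log2 fold change of 5.01. Il1a, which acts as an alarmin, was at 54.1 to 78.1 CPM before LPS (median 62.9) and at 10259 to 22914 CPM afterwards (median 13671), a log2 fold change of 7.85 (SE 0.32, adjusted p = 8.7e-15). Il1b rose by nearly as much, from a median of 92.8 to 13045 CPM (7.22, SE 0.23), and its antagonist Il1rn from 538 to 4632 CPM (3.21, SE 0.23). In each of these the lowest LPS library stood far above the highest unstimulated one. Il6 (ENSMUSG00000025746, chr5:30013114-30019981), the acute-phase cytokine whose promoter is shown above, went from 0.167 to 1.64 CPM (median 0.792) to 1431 to 2573 CPM (median 1767), a log2 fold change of 11.16 (SE 0.53, adjusted p = 6.2e-14). Tnf rose from a median of 3.63 to 139 CPM (5.01, SE 0.27), a smaller response. Il12b, the subunit shared by interleukins 12 and 23, went from a median of 0.0221 to 73.7 CPM (11.60, SE 0.81), with library 31 at 467 CPM and the next at 121 CPM, and stood at 10.73 without that library and at 12.55 without library 20. Without library 31 the value of Il23a was 11.76. Il10, the anti-inflammatory cytokine, was at 0 counts in all unstimulated libraries and at 1.05 to 4.36 CPM after LPS, at least 314-fold higher. Csf2, the gene for GM-CSF, which was also supplied in the medium, was at 0 counts before and at 0.243 to 0.852 CPM after LPS, at least 75.2-fold higher. Il33, an alarmin of barrier tissues, rose from a median of 5.37 to 146 CPM (4.76, SE 0.46). Ifnb1 was low throughout but rose from at most 0.0662 to between 0.728 and 6.97 CPM (7.26, SE 1.09), and to 7.90 or 7.94 without library 20 or 28. Il18 was the exception that fell, from a median of 31.96 to 10.7 CPM (−1.71, SE 0.40, adjusted p = 0.0011). Transforming growth factor Tgfb1 did not pass, with a difference of 0.75. A κB match stood in the promoter window of 4 of the 17 cytokines that had one (23.5%), beside 6.28% of all tested genes with a window.

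**Figure D2:**
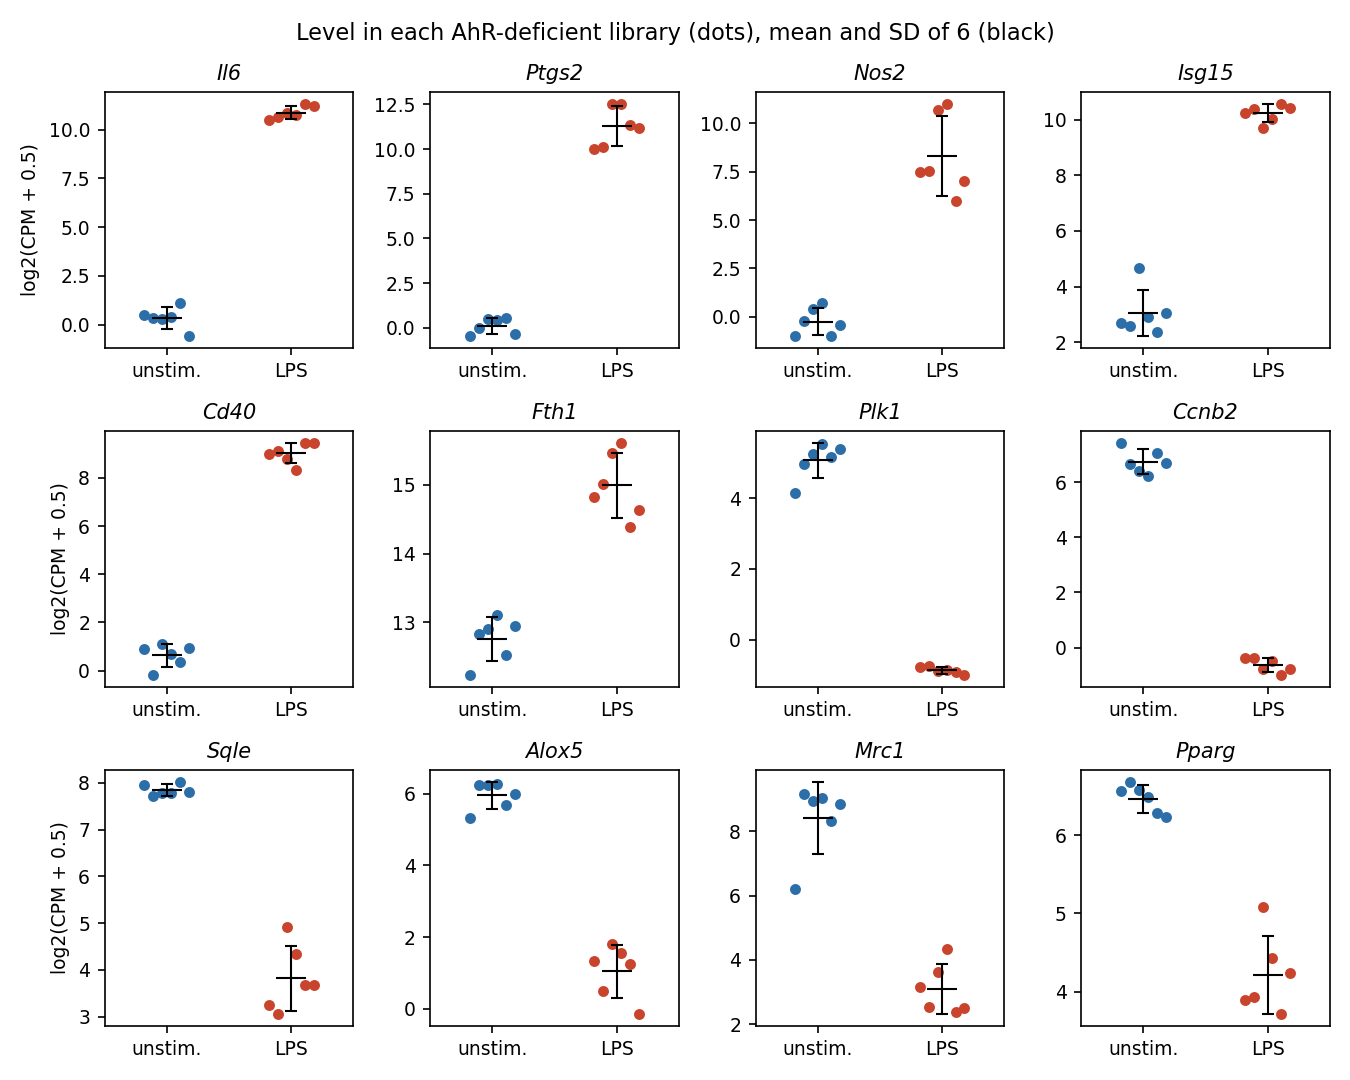
Each dot is an AhR-deficient library, with the level as log2(CPM + 0.5) on the y axis for unstimulated (blue) and LPS (red) cells, and black marks give the mean and SD of 6. In all 12 genes the LPS dots lie wholly above (Il6, Ptgs2, Nos2, Isg15, Cd40, Fth1) or below (Plk1, Ccnb2, Sqle, Alox5, Mrc1, Pparg) the unstimulated dots, and Nos2 spreads most within the LPS group.

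Chemokines showed the highest median of the lists, 6.44, with 16 of 19 higher and 1 lower. Ccl5, a lymphocyte attractant, went from a median of 0.836 to 1201 CPM (10.87, SE 0.94), and the monocyte attractant Ccl2 from 4.13 to 741 CPM (7.55, SE 0.56). Both varied widely after LPS, Ccl2 from 138 to 1625 CPM, yet no LPS library came near the unstimulated range. Cxcl1 rose from a median of 0.335 to 148 CPM (9.06, SE 0.80) and Cxcl10 from 1.08 to 182 CPM (7.28, SE 0.47); both held κB matches in the promoters printed above, as did 5 of the 12 chemokines with a window (41.7%), beside 6.28% of all tested genes with one. Ccl12, a further monocyte attractant, rose by 9.07 (SE 1.15), or 8.38 without library 39 and 9.70 without library 35. Ccl22, made by activated dendritic cells and macrophages, rose by 5.06 (SE 0.62) with library 31 at 4863 CPM against a median of 913, and by 4.33 without that library. The platelet factor Pf4 did not pass (−0.25, adjusted p = 0.48). Among 9 chemokine receptors, 4 were higher and 2 lower, beside 15.1% and 15.7% of all genes. Ccr2, which lets monocytes follow Ccl2, fell from a median of 574 to 17.9 CPM (−4.75, SE 0.47, adjusted p = 1.6e-08), while Ccr7, which guides cells to lymph nodes, rose from 0.802 to 224 CPM (7.76, SE 0.82). The groups did not overlap in either. Ccr7 in library 31 reached 884 CPM, and its value was 7.13 without that library and 8.64 without library 27.

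Every interferon-stimulated gene on the list of 30 was higher after LPS, with a median log2 fold change of 5.55, and so were all 16 interferon-inducible GTPases (median 5.27), against the 15.1% of all genes. In 28 of the 30 and in all 16 the groups did not overlap, beside 28.5% of all tested genes. Irf7, the transcription factor that amplifies the interferon response (chr7:141262706-141266481), went from 4.71 to 36.9 CPM (median 7.26) to 3225 to 4433 CPM (median 3406), a log2 fold change of 8.16 (SE 0.47, adjusted p = 1.6e-12). Isg15 rose from a median of 6.46 to 1282 CPM (7.04, SE 0.43), and the antiviral enzyme Rsad2 (viperin) from 3.67 to 1238 CPM (8.05, SE 0.47). Oasl1 went from 0.216 to 594 CPM (10.39, SE 0.77), and the RNA-binding Ifit3 from 1.35 to 572 CPM (7.90, SE 0.68). Irf9, the DNA-binding subunit of the interferon-activated complex, moved less, from 37.3 to 181 CPM (2.16, SE 0.14). The guanylate-binding protein Gbp2 rose from 31.6 to 2461 CPM (6.23, SE 0.56). Library 27 had the highest unstimulated level of Isg15 (24.8 CPM), Irf7 (36.9 CPM), Rsad2 (14.1 CPM), Oasl1 (1.15 CPM) and Ifit3 (8.09 CPM). Without it the log2 fold changes became 7.63, 8.89, 8.65, 11.07 and 8.91. The interferon core stood in the promoter of 13 of the 22 interferon-stimulated genes with a window (59.1%) and of 10 of the 11 GTPases (90.9%), beside 9.08% of all tested genes with a window.

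All 14 genes of the class I pathway and the immunoproteasome were higher, with a median of 2.35; the peptide transporter Tap1 went from a median of 89.0 to 882 CPM (3.16, SE 0.18), the immunoproteasome subunit Psmb8 from 227 to 1207 CPM (2.43, SE 0.32) and the light chain B2m from 1418 to 4160 CPM (1.85, SE 0.35). Of 14 class II genes, 5 were lower and 2 higher (median −0.34), beside 15.7% and 15.1% of all genes, and 7 did not pass. H2-Aa fell from a median of 901 to 300 CPM (−1.497, SE 0.32, adjusted p = 0.00049) and H2-Eb1 from 329 to 109 CPM (−1.67, SE 0.37), in both with an overlap made by library 31, which held 765 and 275 CPM. Ciita, the master regulator of class II genes, fell by 3.02 (SE 0.92, adjusted p = 0.0093), and by 3.70 without library 31. The invariant chain Cd74 varied from 50.02 to 2309 CPM within the LPS group and did not pass (−0.20, adjusted p = 0.88). H2-Ob, which modulates peptide loading, was higher, from a median of 2.14 to 24.6 CPM (3.58, SE 0.49).

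Of 16 costimulatory and inhibitory ligands, 14 were higher and 1 lower (15.1% and 15.7% of all tested genes), with a median of 3.48. Cd40, through which T cells license macrophages (chr2:165055627-165072948), went from 0.378 to 1.62 CPM (median 1.22) to 324 to 708 CPM (median 533), a log2 fold change of 8.93 (SE 0.49, adjusted p = 7.9e-13). Cd86 rose from a median of 6.94 to 278 CPM (5.24, SE 0.38) and Cd274, the inhibitory ligand PD-L1, from 69.0 to 692 CPM (3.29, SE 0.15). No library crossed between groups. Vsir (VISTA) fell from a median of 124 to 37.4 CPM (−1.44, SE 0.21).

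Of 11 genes for nitric oxide, arginine and itaconate enzymes, 6 were higher, beside 15.1% of all tested genes, and 1 lower, beside 15.7%. Nos2, the inducible nitric oxide synthase (chr11:78920787-78960254), went from 0 to 1.16 CPM (median 0.295) to 63.0 to 2081 CPM (median 182), a log2 fold change of 10.68 (SE 1.497, adjusted p = 2.6e-06). Libraries 31 and 32, both of the second run, held 1665 and 2081 CPM, and the within-run differences on the log2(CPM + 0.5) scale were 8.13, 10.3 and 7.22. Without library 32 the value was 9.98. Acod1 was even, from a median of 19.6 to 5237 CPM (8.12, SE 0.35, adjusted p = 1.5e-14). The cationic amino acid transporter Slc7a2, already abundant, rose from 2003 to 6866 CPM (1.66, SE 0.18). Spermidine synthase Srm fell from 23.4 to 6.21 CPM (−1.87, SE 0.25).

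Of 21 genes for eicosanoid synthesis, 4 were higher after LPS, a share near the 15.1% of all tested genes, and 10 were lower, beside 15.7%. The inducible cyclooxygenase and a prostaglandin E synthase were among the higher, and the constitutive cyclooxygenase and 3 leukotriene enzymes among the lower. Ptgs2, the inducible cyclooxygenase (chr1:150100031-150108227), went from 0.227 to 0.969 CPM (median 0.680) to 1023 to 5992 CPM (median 2476), a log2 fold change of 12.28 (SE 0.65, adjusted p = 3.8e-13). The terminal prostaglandin E synthase Ptges followed, from a median of 2.84 to 190 CPM (5.86, SE 0.33), and Pla2g4a, the phospholipase that frees arachidonic acid, rose from 62.7 to 211 CPM (1.73, SE 0.16). In the other direction, Alox5, which starts leukotriene synthesis, fell from 39.8 to 76.2 CPM (median 69.0) to 0.401 to 3.03 CPM (median 1.93), a change of −5.16 (SE 0.45, adjusted p = 1.8e-09). Leukotriene C4 synthase Ltc4s fell from a median of 22.6 to 1.14 CPM (−4.04, SE 0.36), leukotriene A4 hydrolase Lta4h from 256 to 41.5 CPM (−2.59, SE 0.17) and the constitutive cyclooxygenase Ptgs1 from 37.4 to 1.75 CPM (−4.40, SE 0.42). All 7 of these genes were without overlap. These are transcript levels; mediators are not part of the data used here.

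Of 21 glycolytic and HIF-1 genes, 10 were higher and none lower (median 1.20). The count was 5 higher and 1 lower when scaled by total counts. Over all tested genes 15.1% were higher and 15.7% lower, which holds for each list in this paragraph. The glucose transporter Slc2a1 rose from a median of 358 to 1928 CPM (2.32, SE 0.25), Hif1a from 152 to 537 CPM (1.76, SE 0.12) and Vegfa from 7.23 to 47.9 CPM (3.82, SE 0.61). Of 25 nuclear-encoded respiratory chain genes, 1 was higher and 1 lower, with a median of −0.17, so the list as a whole stood close to the median gene; scaled by total counts none was higher and 6 were lower. Iron handling, 7 of 13 higher and 2 lower, included hepcidin: Hamp rose from at most 0.166 CPM to between 8.83 and 29.7 CPM (8.11, SE 0.75), or 8.78 without library 20. The phagosomal metal transporter Slc11a1 rose from a median of 34.8 to 482 CPM (3.91, SE 0.22), and the transferrin receptor Tfrc from 27.3 to 104 CPM (1.77, SE 0.20). The ferrireductase Steap3 fell from 33.5 to 1.51 CPM (−4.12, SE 0.26). Among 14 metalloproteinases and inhibitors, 7 were higher and 1 lower; the collagenase Mmp13 rose from 9.57 to 1359 CPM (7.46, SE 0.60) and the inhibitor Timp1 from 28.2 to 478 CPM (4.10, SE 0.28). In the inflammasome and death list, 9 of 19 were higher and none lower; Nlrp3 rose by 2.68 (SE 0.47) and the necroptosis effector Mlkl by 3.18 (SE 0.22). The oxidant defence list had 10 of 20 higher and none lower. In it, mitochondrial superoxide dismutase Sod2 rose from a median of 242 to 1794 CPM (3.04, SE 0.17) and haem oxygenase Hmox1 from 177 to 597 CPM (1.92, SE 0.24).

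Cell cycle genes fell furthest of all lists: 23 of 26 were lower and none higher, with a median log2 fold change of −4.27, beside 15.7% lower among all genes. Ccnb2, a mitotic cyclin (chr9:70407692-70421547), went from 74.2 to 173 CPM (median 103) to between 0 and 0.263 CPM (median 0.148), a change of −9.50 (SE 0.48, adjusted p = 2.3e-13). Plk1, a kinase of mitotic entry (chr7:122159439-122169873), went from a median of 36.4 to 0.0467 CPM (−9.36, SE 0.47). Rrm2, which supplies deoxynucleotides, fell from 135 to 0.744 CPM (−7.31, SE 0.27), Ccnb1 by 8.10 (SE 0.52), Top2a by 7.14 (SE 1.12), the replicative helicase subunit Mcm5 by 4.25 (SE 0.20) and Cdk1 by 4.25 (SE 0.31). The replication clamp Pcna fell by 1.17 (SE 0.29, adjusted p = 0.0018), and its difference without library 19 was −0.99, under the required fold. Mki67, the usual proliferation marker, did not pass (−0.76, adjusted p = 0.085); it was at only 1.17 to 3.89 CPM before LPS, while without library 31 it passed (−1.02, adjusted p = 0.0218). It also passed when scaled by total counts (−1.24, adjusted p = 0.0107). Ccnd1 did not pass either (−0.79, adjusted p = 0.069), but passed with limma-voom (−1.02, adjusted p = 0.0304) and with total counts (−1.26, adjusted p = 0.00613). The 12 largest falls among DEGs reaching 10 CPM with groups that did not overlap were Krt79, Ccnb2, Gm15428, Plk1, Depdc1a, Slco2b1, Cdc25c, Pimreg, Tpbgl, Ccnb1-ps, Pclaf and Bok, at −9.91 to −8.52. Besides Ccnb2 and Plk1 these held the mitotic phosphatase Cdc25c (−8.85, SE 0.75), the replication factor Pclaf, from a median of 228 to 0.554 CPM (−8.57, SE 0.46), and the mitosis-associated Pimreg (−8.77, SE 0.52) and Depdc1a (−9.01, SE 0.69). The others included the keratin Krt79, from a median of 18.4 CPM to 0 counts in 4 of the 6 LPS libraries (−9.91, SE 0.96), the organic anion transporter Slco2b1, from 90.5 to 0.122 CPM (−8.96, SE 0.67), and the Bcl-2 family member Bok, from 24.5 to 0.0675 CPM (−8.52, SE 0.69). With so few counts left after LPS, leaving out 1 library moved the value of Krt79 to −11.52 (library 31), Cdc25c to −9.70 and Ccnb1 to −8.72 (library 23), Depdc1a to −9.64 (library 40), Pimreg to −9.45 (library 39) and Tpbgl to −9.26 (library 32). Gm15428 and Ccnb1-ps are annotated as processed pseudogenes, and how reads divide between them and their parent genes was not tested.

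Cholesterol synthesis fell almost as broadly, with 18 of 23 genes lower, beside 15.7% of all tested genes, none higher and a median of −2.90. Cyp51, lanosterol demethylase (chr5:4081145-4104746), went from 309 to 385 CPM (median 331) to 16.3 to 27.97 CPM (median 23.4), a change of −3.88 (SE 0.16, adjusted p = 6.8e-15). Sqle, squalene epoxidase, fell from a median of 222 to 12.3 CPM (−3.92, SE 0.26), Hmgcs1 from 262 to 25.7 CPM (−3.40, SE 0.19), Fdps from 17.7 to 0.860 CPM (−4.59, SE 0.30) and Fdft1 from 93.7 to 11.3 CPM (−3.05, SE 0.14). The groups stood apart in all 5. The regulator Srebf2 did not pass (−1.27, adjusted p = 0.073), but passed with the run of 8 libraries as a factor (−1.57, adjusted p = 0.00105), with the length slope in the model (−1.32, adjusted p = 4.6e-10), with DESeq2 (−1.26, adjusted p = 0.042), with total counts (−1.78, adjusted p = 0.0194) and without library 19 (−1.48) or library 31 (−1.58). Insig1, a sterol-regulated retention factor, fell by 1.94 (SE 0.16). Of 14 targets of the oxysterol receptor LXR and efflux genes, 2 were higher, which is near the 15.1% of all tested genes, and 4 lower, with a median of −0.46. The higher ones were Ch25h, which makes 25-hydroxycholesterol and rose from a median of 12.5 to 330 CPM (4.69, SE 0.33), and the transporter Abca1, from 39.1 to 175 CPM with groups that overlapped (2.82, SE 0.83, adjusted p = 0.0072). The desaturase Scd1 fell by 3.67 (SE 0.53).

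Genes of alveolar macrophage identity, which GM-CSF and TGF-β are given to induce, were mostly lower after LPS: 15 of 23 lower and 2 higher, median −1.68, beside 15.7% and 15.1% of all tested genes. Pparg, the transcription factor of alveolar macrophage differentiation, went from 74.4 to 102 CPM (median 91.3) to 12.6 to 33.4 CPM (median 16.5), a change of −2.21 (SE 0.20, adjusted p = 4.2e-09). Siglecf fell from a median of 177 to 10.6 CPM (−3.92, SE 0.36), and the fatty acid carriers Fabp4 and Fabp5 fell by 3.70 (SE 0.58) and 3.29 (SE 0.32). Car4, also on the list, went the other way, from 1212 to 3414 CPM (1.57, SE 0.16). Of 14 receptors and signalling genes for colony-stimulating factors and TGF-β, 5 were higher and 2 lower, the latter near the share over all tested genes, with a median of 0.97; with total counts, or with the 12 AhR-deficient libraries only, 2 were higher. Tgfbr1, a TGF-β receptor, was one of the lower genes, from a median of 903 to 254 CPM (−1.74, SE 0.19). Among scavenger and phagocytic receptors 12 of 22 were higher and 4 lower, the latter again near the 15.7%. The mannose receptor Mrc1 fell from a median of 480 to 6.90 CPM (−5.47, SE 0.70), while the high-affinity immunoglobulin receptor Fcgr1 rose from 73.0 to 1187 CPM (3.87, SE 0.31), Cd36 from 236 to 1144 CPM (2.24, SE 0.29) and Msr1 from 230 to 882 CPM (1.92, SE 0.23).

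**Figure D3:**
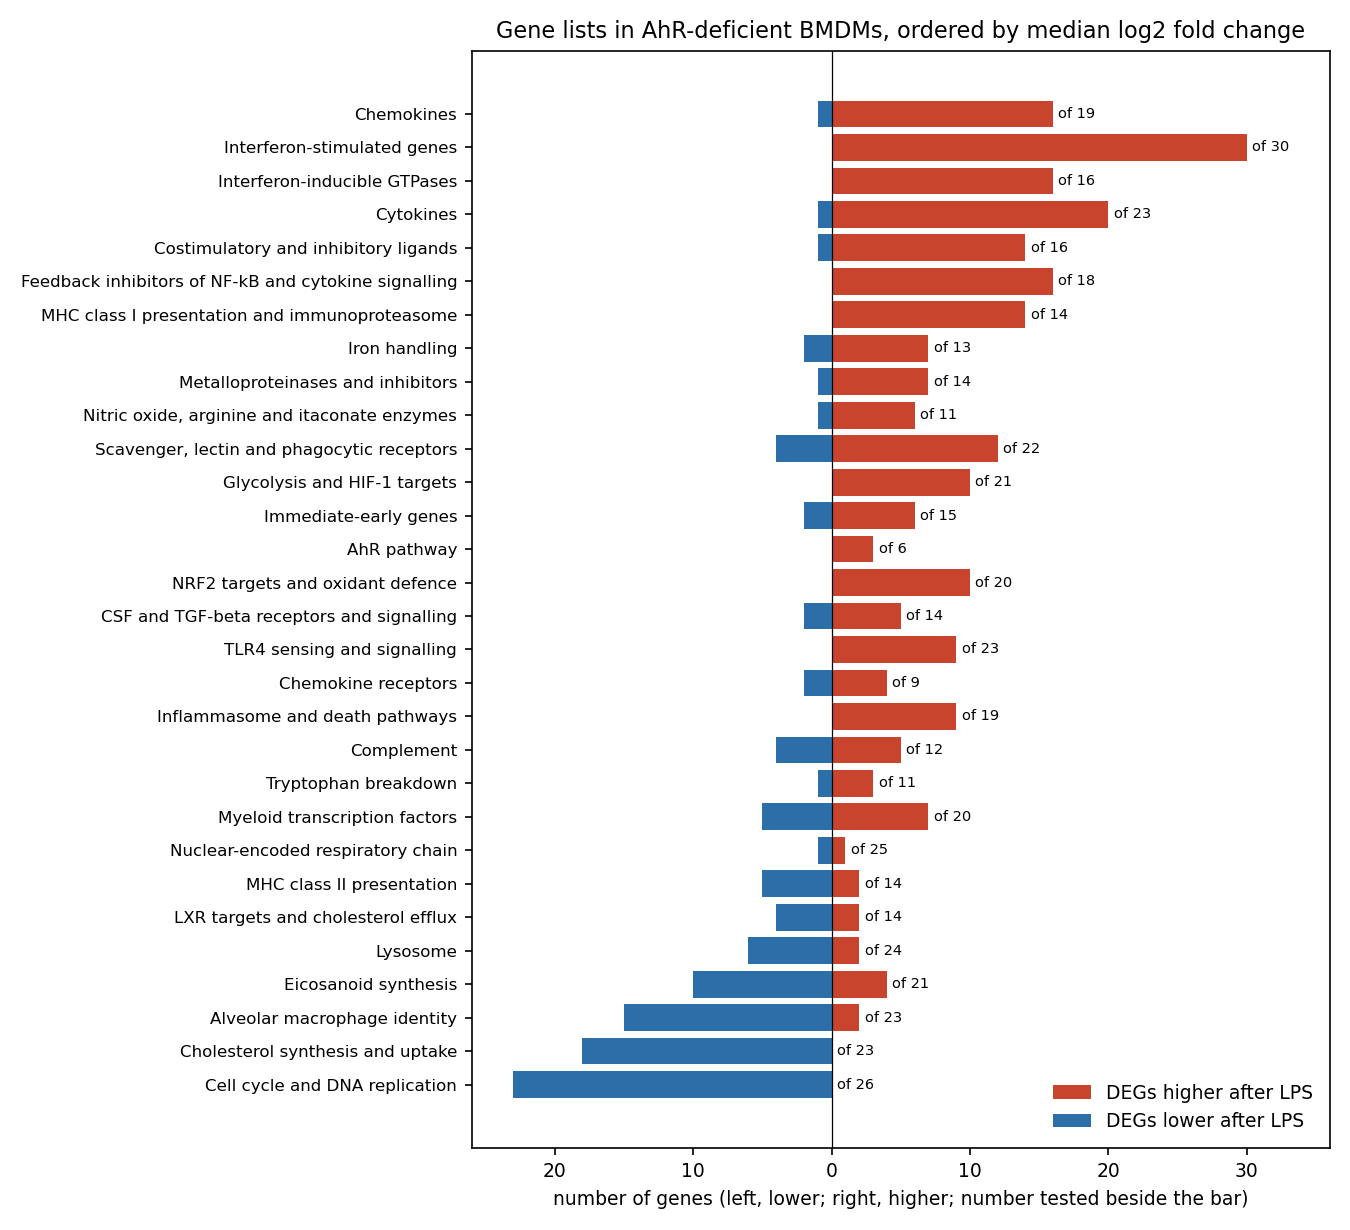
For each gene list, the bar to the right counts DEGs that were higher and the bar to the left DEGs that were lower after LPS in AhR-deficient BMDM, with the number tested beside it. Lists are ordered by their median log2 fold change, from chemokines at 6.44 at the top to the cell cycle at −4.27 at the bottom.

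Of 20 myeloid transcription factors, 7 were higher and 5 lower, beside 15.1% and 15.7% of all genes. Irf4 rose from a median of 73.1 to 278 CPM (2.06, SE 0.31). Cebpa fell from 173 to 31.4 CPM (−2.15, SE 0.20) and Klf4 by 3.22 (SE 0.72). Spi1, the lineage factor PU.1, did not pass (−0.33, adjusted p = 0.057). Irf8 stood at 32.4 to 183 CPM after LPS with library 31 the highest, and did not pass (0.13, adjusted p = 0.80). Without library 31 its value was −0.44. On a separate list of 15 immediate-early genes, 6 were higher, beside 15.1% of all genes, and 2 lower, near the 15.7%. There the stress-induced Atf3 rose from a median of 43.3 to 541 CPM (3.87, SE 0.21) and Myc fell by 4.57 (SE 1.03). The lysosome list held 6 lower and 2 higher of 24, a share near the 30.8% of DEGs among all tested genes, with 10 lower when scaled by total counts; the higher ones included the cholesterol carrier Npc2 (2.08, SE 0.20). Lyz2, lysozyme, the most abundant macrophage marker, was at a median of 27912 CPM before and 13660 CPM after LPS with no overlap (−0.95, SE 0.22, adjusted p = 0.00085), just under the required fold and past it without library 19 (−1.02) or 35 (−1.003) and with total counts (−1.45). Adgre1, the F4/80 antigen, rose from 404 to 2408 CPM (2.54, SE 0.21).

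Markers of other cell types moved in places. The summed dendritic cell markers were at 9.91 to 19.6 CPM before and 115 to 1047 CPM after LPS, and the rise lay in Ccr7 and Fscn1, the actin-bundling protein of mature dendritic cells, which rose by 4.89 (SE 0.96; 3.56 without library 31). Of the other 7 tested, none was higher, Clec9a and Cd209a were lower, and Cd207 had no count after LPS. Library 31 held the highest values of Ccr7 (884 CPM), Fscn1 (153 CPM), Ccl22 (4863 CPM), Il12b (467 CPM) and H2-Aa (765 CPM) among the 6 LPS libraries. Mast cell and basophil markers summed to 2.33 to 4.80 CPM before and 534 to 836 CPM after LPS, of which Hdc, the histamine-forming enzyme, made up nearly all (528 to 823 CPM), while Kit reached 8.04 CPM at most. Kit and Fcer1a were also higher, and the other 5 of 8 did not pass. Neutrophil markers ranged from 256 to 805 CPM before and 141 to 1020 CPM after LPS, eosinophil markers from 22.7 to 121 and from 14.95 to 93.4 CPM. Fibroblast markers went from 2.13 to 13.95 CPM to 15.6 to 38.6 CPM, with the proteoglycan Dcn (5.86, SE 0.60) at 8.76 CPM or more after LPS. Lum and Pdgfrb were also higher, and the collagens did not pass. The part of these cells in the results was not tested.

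Set beside the WT response, the response of AhR-deficient cells went mostly the same way. WT BMDM had 4137 DEGs (24.9%) after LPS in the same fit. Of the genes, 3420 were DEGs in both genotypes, 67.0% of those in AhR-deficient and 82.7% of those in WT cells, and 3396 of them had the same direction. The log2 fold changes of the genotypes, which share no library, correlated across all tested genes with a Pearson r of 0.87; genes are not independent replicates. In 2538 of the 3396 genes (74.7%) the absolute fold change was the larger one in AhR-deficient cells. The difference itself, the response in AhR-deficient minus that in WT cells, passed an adjusted p of 0.05 for 713 genes (4.3%), 324 positive (1.95%) and 389 negative (2.34%), and in 603 of these 713 the absolute response was the larger one in AhR-deficient cells. An unadjusted p of at most 0.05 was reached by 2241 genes. WT libraries 34 and 38 held almost no Y-linked counts, unlike the other 22; without them 613 genes passed. The count was 520 with no filter on low counts, 711 with limma-voom, 1125 with DESeq2, 1201 once the run of 8 libraries entered as a factor and 2721 once the length slope did.

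**Figure D4:**
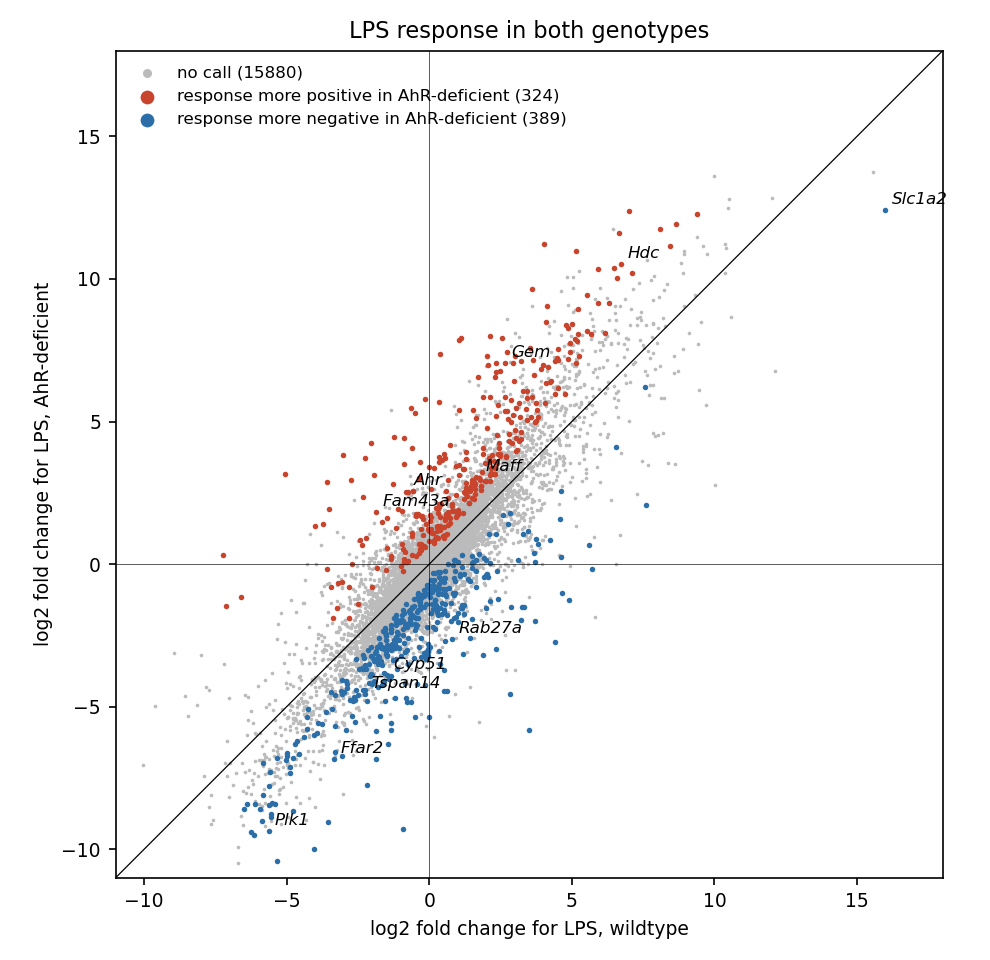
Each dot is a tested gene, with the log2 fold change after LPS in WT BMDM on the x axis and in AhR-deficient BMDM on the y axis; the line marks equal responses. Red and blue dots are the 324 and 389 genes whose response was more positive or more negative in AhR-deficient cells, and most lie farther from 0 on the AhR-deficient axis.

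Among the genes with the smallest p-values for this difference were some whose fitted responses had opposite signs. Fam43a (chr16:30599723-30602797) was at 4.73 to 6.46 CPM in unstimulated and 19.2 to 21.5 CPM in LPS-treated AhR-deficient libraries, while in WT its mean went from 63.9 to 17.7 CPM; the difference of responses was 3.69 (adjusted p = 2.4e-07). Rab27a, which docks secretory vesicles, fell by 2.64 (SE 0.24) in AhR-deficient cells, while its WT log2 fold change was above 0 at 0.80, a difference of −3.44 (adjusted p = 1.4e-06). Siglecg, an inhibitory lectin, fell by 2.59 (SE 0.31) beside a WT value above 0 of 1.44 (difference −4.03, adjusted p = 4.6e-06). It was low in every group, with means of 1.16 and 0.190 CPM in AhR-deficient and 0.428 and 1.17 CPM in WT cells. In the other genes singled out by their p-value both genotypes went the same way, and the AhR-deficient cells further. Hdc rose by 10.52 (SE 0.43) against 6.74 in WT, Gem by 7.04 (SE 0.34) against 2.66, the transcription factor Maff by 3.03 (SE 0.10) against 1.75, the adaptor Scimp by 2.83 (SE 0.15) against 1.28 and Igsf8 by 1.77 (SE 0.10) against 0.60. Their differences were 3.79, 4.38, 1.28, 1.56 and 1.17, with adjusted p-values of 5.1e-05 or less. The levels before LPS were unequal in part of these: Gem had a mean of 0.642 CPM in AhR-deficient and 17.01 CPM in WT unstimulated cells, and Hdc 0.436 against 3.85 CPM. The short-chain fatty acid receptor Ffar2 fell by 6.83 (SE 0.32) against −3.34 in WT, the tetraspanin Tspan14 by 4.56 (SE 0.23) against −2.27 and the mitochondrial transporter Abcb10 by 3.03 (SE 0.12) against −1.53.

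Cholesterol synthesis showed the densest set of such differences: in 16 of 23 genes the response was more negative in AhR-deficient cells, and in none more positive, beside 2.34% of all genes. The medians were −2.90 in AhR-deficient and −1.53 in WT cells. For Cyp51 the WT mean went from 268 to 95.7 CPM, a response of −1.49, and the difference was −2.39 (adjusted p = 2.4e-07). It was −1.52 for Fdft1 (adjusted p = 4.6e-05), −1.47 for Hmgcs1, −1.83 for Sqle and −2.09 for Fdps. In these genes the AhR-deficient mean was above that of WT before LPS and below it afterwards, as in Sqle (230 against 202 and then 15.2 against 47.4 CPM). For Cyp51, at 336 against 268 CPM, the groups stood apart before LPS already. Ch25h rose more in AhR-deficient cells (difference 1.67, adjusted p = 0.016; 0.0703 with limma-voom).

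In 13 of the 30 interferon-stimulated genes the rise was larger in AhR-deficient cells and in none smaller, beside 1.95% of all genes, with medians of 5.55 and 3.51. The differences were 2.64 for Irf7 (adjusted p = 0.0022), 2.85 for Rsad2 (adjusted p = 0.0012), 3.91 for Oasl1 and 1.88 for Isg15. In these genes the AhR-deficient mean was lower than WT before LPS and higher after it, for Irf7 12.4 against 34.2 CPM and then 3560 against 1567 CPM. Ifit3, at 2.23, did not pass (adjusted p = 0.089). Of 23 cytokines, 6 rose more in AhR-deficient cells, among them Il6 (2.71, adjusted p = 0.0020), Il12b (4.94), Il23a (5.39), Il33 (2.75), Il1rn (1.35) and Tnf (1.26, adjusted p = 0.023). Ccl2 (3.02), Ccl12 (4.95) and Cxcl10 (2.04) did so among the chemokines. Cxcl3 (−1.35) and Pf4 (−1.90) had the more positive response in WT. The AhR-deficient mean of Cxcl3 was above that of WT before LPS (62.6 against 14.1 CPM) and after it (4608 against 2659 CPM). That of Pf4 was above WT before (125 against 47.7 CPM) and below it after LPS (105 against 150 CPM). The call for Ccl12 was lost without library 39 (adjusted p = 0.056) or WT library 26 (adjusted p = 0.0567), and that for Cxcl3 without library 28, 36, 17, 29 or 34 (adjusted p = 0.0508 to 0.0602). With limma-voom the adjusted p was 0.136 for Il23a, 0.108 for Tnf, 0.202 for Ccl12 and 0.0934 for Ptgs2, and with total counts 0.0625 for Tnf and 0.0522 for Cxcl10. Ptgs2, with WT means of 0.836 and 560 CPM, rose by 2.90 more in AhR-deficient cells (adjusted p = 0.0051), whereas Ltc4s fell by 2.61 more (adjusted p = 0.0014). Cd40 (3.72, adjusted p = 0.00011), Cd86 (2.30) and Acod1 (1.96) belonged to the same direction. The AhR-deficient mean of Cd86 was below that of WT before LPS (7.65 against 55.3 CPM) and also after it (290 against 425 CPM).

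**Figure D5:**
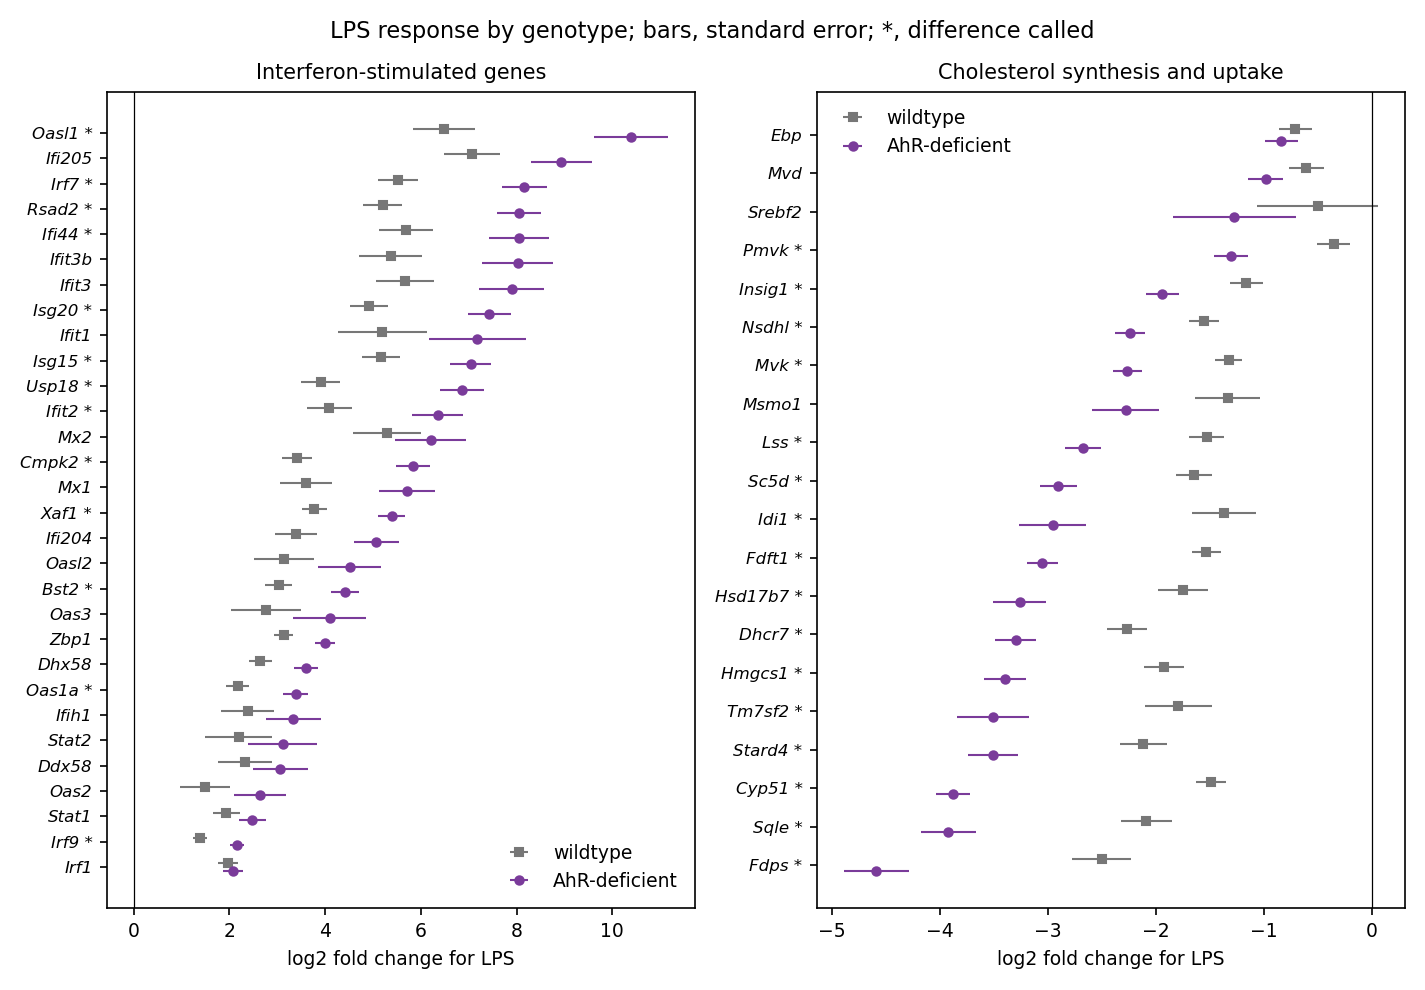
Log2 fold change after LPS with its standard error for interferon-stimulated genes (left) and cholesterol genes (right), in WT (grey squares) and AhR-deficient BMDM (purple circles). Asterisks mark the 13 and 16 genes whose responses differed; all of these lie farther from 0 in AhR-deficient cells.

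In some genes the level moved in one genotype and stayed closer to its start in the other. Irf8, with WT means of 111 and 956 CPM, rose by 3.10 in WT and differed by −2.97 between genotypes (adjusted p = 0.00078). Fabp5 stayed near its level in WT (245 and 225 CPM) while it fell in AhR-deficient cells (difference −3.16, adjusted p = 7.6e-05). Haao, of the kynurenine pathway, fell by 4.82 (SE 0.49) against −0.79 in WT, a difference of −4.03. H2-Ob (3.92) and Tfrc (2.24, adjusted p = 5.3e-05) rose in AhR-deficient cells, with WT responses of −0.33 and −0.47. Both started below WT. The means of H2-Ob were 2.43 against 43.3 CPM before and 29.3 against 34.5 CPM after LPS. Those of Tfrc, per kilobase of gene length, were 4.72 against 19.96 CPM and then 16.1 against 14.4 CPM. Ccnd1 showed a difference of 2.65, its WT mean having gone from 76.5 to 7.08 CPM, with 16.6 CPM in unstimulated AhR-deficient cells. Slc1a2 rose less in AhR-deficient cells (−3.58, adjusted p = 0.0055), but its WT libraries before LPS held a mean of only 0.00461 CPM, and the difference did not pass with limma-voom (adjusted p = 0.112).

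The AhR pathway itself could be read in these libraries. Ahr (ENSMUSG00000019256, chr12:35497974-35535038) was counted over the whole gene, which does not separate the targeted part of the allele from the rest of the transcript. Its level was 4.74 to 11.0 CPM in unstimulated and 21.4 to 63.8 CPM in LPS-treated AhR-deficient libraries, with no overlap (2.54, SE 0.37, adjusted p = 4.3e-06), and the within-run differences were 2.66, 2.58 and 2.05. In WT the mean went from 28.3 to 16.8 CPM (−0.75), and the responses differed by 3.29 (adjusted p = 0.00037). Ahrr, the AhR repressor and a direct target, was at 0 to 1.05 CPM in all 12 AhR-deficient libraries, with WT means of 42.3 and 64.1 CPM, and its difference after LPS did not pass (−1.25, adjusted p = 0.052). It passed in 8 alternatives, among them the run of 8 libraries as a factor (−1.29, adjusted p = 0.0418), DESeq2 (−1.23, adjusted p = 0.025), total counts (−1.74, adjusted p = 0.0116) and a minimum mean of 1 CPM (−1.27, adjusted p = 0.0467). Cyp1b1, a further target, rose from a median of 0.294 to 2.33 CPM (3.25, SE 0.74, adjusted p = 0.00089), with WT means of 3.11 and 18.1 CPM. Tiparp, an AhR target that other stimuli also induce, rose from 51.7 to 136 CPM (1.52, SE 0.18) against 0.04 in WT (difference 1.48, adjusted p = 0.00078). Of enzymes that form AhR ligands from tryptophan, Il4i1 rose from a median of 0.393 to 30.01 CPM (6.16, SE 0.77; 5.45 without library 31 and 6.89 without library 27), with WT means of 16.2 and 240 CPM. Ido1 had no count before LPS and at most 0.271 CPM afterwards, at least 14.1-fold higher.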

How the data were processed

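Poly(A) RNA was sequenced from 24 libraries; the AhR-deficient groups had 46337041 to 76992663 counts each. The deposited table holds raw counts per gene. Per the authors' methods, GSNAP placed the reads on mm10, and featureCounts (2.0.1) gave gene counts from unique alignments on Ensembl 98. Of 55421 genes, 55154 received symbols from GENCODE M21; 92 spike-in sequences with 1 count were left out.

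Members, gene lists and tests were chosen with earlier results of these data known. edgeR 4.0.16 in R 4.3.3 was used with TMM factors, filterByExpr and robust quasi-likelihood on all 24 libraries with 4 group means, since they then share the estimate of spread. DEGs needed a Benjamini-Hochberg adjusted p no greater than 0.05 together with a change of 2-fold or more, the study's own limits; the difference between genotypes had no fold minimum. On simulated data with 200 genes changed 4-fold, 65% were recovered with 3 of the other genes called for the LPS response, and 46.5% with 6 for the difference.

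Named genes were the 12 largest changes each way among DEGs with 10 CPM or more and no overlap, the 10 largest gains and losses in CPM among DEGs, the 6 smallest p-values of the difference each way, Ahr and list members. The 37 lists hold 605 genes, 575 of them tested. Il36g was matched under Il1f9, and Aldoa, with several identifiers, was left out. Counting intervals are exact and cover counting error only. Alternatives were DESeq2 1.42.0, limma-voom 3.58.1, other scalings, filters and covariates, 12 libraries only, and each library left out. Promoters came from RefSeq. A few list members count in their lists but are not reported here by name.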

Additional observations from a re-analysis of the deposited data

Results flagged for a closer look

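In 23 of 333 groups of 6 AhR-deficient libraries, counted over the named genes, 1 library stood far from the other 5 by Dixon's criterion, which chance alone does in about 1 of 20 groups. Library 31 (LPS) was the high value for Il12b (467 CPM), H2-Aa (765 CPM), H2-Eb1 (275 CPM), Irf8 (183 CPM) and Krt79 (0.0787 CPM), and the low value for the oxysterol enzyme gene Ch25h (91.1 CPM). Library 32 (LPS) was the high value for Rsad2 (2336 CPM), Irf7 (4433 CPM) and Dcn (21.2 CPM), and library 39 (LPS) for Mmp12 (41990 CPM).

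Among unstimulated libraries, library 27 was the high value for genes of the interferon response and class I presentation: Isg15 (24.8 CPM), Rsad2 (14.1 CPM), Tap1 (153 CPM) and H2-K1 (1743 CPM). It was also high for Ms4a4c (1.71 CPM) and for Cxcl11 (0.0222 CPM), which had no count elsewhere in that group. Library 19 was the low value for Mrc1 (73.1 CPM), Lta4h (196 CPM) and Hif1a (119 CPM). This library had the lowest slope of level on gene length, −0.30, among the AhR-deficient libraries; its part in these values was not tested. Library 28 was set apart by 1 count each in U90926 and Il23a (0.0165 CPM each) and by 2 counts in Pde11a (0.0331 CPM). Library 20 was set apart by 2 counts in Il12a (0.0302 CPM).

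For 71 of 169 named genes the LPS response differed between AhR-deficient and WT cells by the test of that difference (edgeR, adjusted p of at most 0.05). The values are the AhR-deficient minus the WT log2 fold change. In inflammatory and antigen-presenting genes it was positive for Il23a (5.39), Ccl12 (4.95), Il12b (4.94), Cd40 (3.72), H2-Ob (3.92), Ccl2 (3.02), Ptgs2 (2.90), Il33 (2.75), Il6 (2.71), Cd86 (2.30), Cxcl10 (2.04), Acod1 (1.96), Socs1 (1.63), Fcgr1 (1.38), Il1rn (1.35), Tnf (1.26) and Tap1 (0.84). Interferon-stimulated genes were Oasl1 (3.91), Rsad2 (2.85), Irf7 (2.64), Isg15 (1.88) and Irf9 (0.78). The value was also positive for Gem (4.38), Dcn (3.96), Hdc (3.79), Fam43a (3.69), Ms4a4c (3.67), Ahr (3.29), Serpinb2 (3.24), Ccnd1 (2.65), Tfrc (2.24), Ch25h (1.67), Scimp (1.56), Tiparp (1.48), Atf3 (1.45), Maff (1.28), Igsf8 (1.17) and Hif1a (0.74).

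Negative values included the cell cycle genes Plk1 (−3.73), Ccnb2 (−3.36), Cdc25c (−3.29), Pimreg (−3.24), Depdc1a (−3.14), Ccnb1-ps (−2.63), Ccnb1 (−2.28), Pclaf (−2.08) and Rrm2 (−1.73) and the cholesterol genes Cyp51 (−2.39), Fdps (−2.09), Sqle (−1.83), Fdft1 (−1.52), Hmgcs1 (−1.47) and Insig1 (−0.78). The others were Haao (−4.03), Siglecg (−4.03), Tpbgl (−3.88), Slc1a2 (−3.58), Ffar2 (−3.49), Rab27a (−3.44), Fabp5 (−3.16), Gm15428 (−3.13), Irf8 (−2.97), Ltc4s (−2.61), Tspan14 (−2.29), Pf4 (−1.90), Abcb10 (−1.50), Cxcl3 (−1.35), Naaa (−1.24), Relb (−1.05), Lta4h (−0.84) and Adipor2 (−0.81).

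Some of these differences sat close to the threshold. Leaving out single libraries ended the call for Tap1 in 19 of 24 fits, for Fcgr1 and Relb in 17, for Lta4h in 15 and for Insig1 in 13, with adjusted p-values of at most 0.0847 (edgeR). It ended it in 5 fits or fewer for Cxcl3, Cdc25c (without library 24, 40 or 22), Ccl12 and Naaa (without library 17), and in none for the other 62 of the 71. Other settings also ended calls. With limma-voom these were Ccl12 (adjusted p = 0.202), Serpinb2 (0.182), Depdc1a (0.149), Tpbgl (0.146), Il23a (0.136), Ms4a4c (0.135), Slc1a2 (0.112), Tnf (0.108), Ptgs2 (0.0934), Relb (0.0892), Cdc25c (0.0794), Ch25h (0.0703) and Gm15428 (0.0605). With scaling by total counts they were Irf9 (0.113), Tap1 (0.0949), Hif1a (0.0919), Tnf (0.0625), Relb (0.0544) and Cxcl10 (0.0522). With no filter on low counts they were Tap1, Lta4h, Relb, Insig1, Irf9 and Fcgr1 (0.0603 to 0.0879), and without WT libraries 34 and 38 Insig1, Relb, Depdc1a, Tap1 and Tnf (0.0504 to 0.0921).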

How the results depend on the processing

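No paired analysis was possible because the labels do not say which cultures came from the same animal; the run of 8 libraries, with 2 of each group, entered as a factor instead. Scaling by total counts gave 4398 lower DEGs in place of 2601. The number of DEGs otherwise ran from 3893 with a minimum mean of 1 CPM to 7402 without a minimum fold, and from 4991 to 5267 when single libraries were left out. The difference between genotypes was called for 520 genes with no filter on low counts, 1125 by DESeq2, 1201 with the run of 8 libraries as a factor and 2721 once the length slope entered the model, in place of 713, and for 564 to 782 genes when single libraries were left out; the causes were not tested. The absolute response was larger in AhR-deficient cells for 81.3%, 81.3% and 79.1% of the genes called with DESeq2, the run and the length slope, beside 84.6%. Of 169 named responses to LPS, 9 changed their call or sign under some alternative. Signs turned only for Irf8 (0.13), to −0.34 with total counts and −0.12 with limma-voom, with −0.44 to 0.28 over single libraries left out, and for Cd74, with −0.97 to 0.31. Of 74 counts of higher or lower members of the lists, 21 moved by over 1.5 times in some alternative, in 71 of 2516 values. Of 71 differences between genotypes, 22 lost their call in at least 1 alternative and none changed sign. At this depth a gene with no count in a group of 6 could lie at up to 0.00767 CPM before and 0.0101 CPM after LPS (3 counts over the group, counting error only).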
